A study of Mus musculus with 14 samples.

Results

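Mouse embryonic stem cells (ESCs) were compared by RNA-seq before and after withdrawal of CHIR99021, an inhibitor of glycogen synthase kinase 3 (GSK3). The comparison rests on 4 of the 14 samples of the series, 2 of wild-type ESCs in 2i + LIF and 2 of wild-type ESCs in PD + LIF. The gene table lists 41204 genes, and the 15430 with a mean above 0.2 FPKM (fragments per kilobase of transcript, scaled to the number of mapped fragments) over the 8 RNA-seq samples were tested. The series compared wild-type ESCs with ESCs lacking Trincr1 (Gm2694 in the table), a long noncoding RNA bound by the RNA-binding protein TRIM71, in both media, and it also sequenced RNA bound by TRIM71. The remaining 4 RNA-seq samples are Trincr1-/- ESCs in the same media, which here helped to estimate the spread and to test whether a response differed between genotypes.

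All samples of the comparison are wild type and derive from a cross of C57BL/6(F) with 129/sv(M). 2i + LIF is serum-free N2B27 medium with 1.0 μM of the MEK inhibitor PD0325901, 3.0 μM CHIR99021 and 1000 units/ml leukemia inhibitory factor (LIF). For PD + LIF, ESCs were plated in 2i + LIF for 24 hours and then kept for 4 days in N2B27 with PD0325901 and LIF but without CHIR99021. MEK inhibition and LIF were therefore shared by both groups. The time for which the 2i + LIF samples were cultured is not given in the labels. Effects of the change of medium and of the days in culture cannot be told apart from those of CHIR99021 withdrawal. The labelled developmental stage is 3.5 days, the age of the blastocysts from which ESCs are derived. Cells grew on gelatin without a stated feeder layer, and poly(A) RNA was sequenced. The labels number 2 replicates per group and do not state whether they were separate lines or days, so p-values measure the spread between these samples.

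GSK3 marks β-catenin, the messenger of the canonical Wnt pathway, for destruction, and an inhibitor of GSK3 stabilises β-catenin without a Wnt ligand. In ESCs, β-catenin relieves the repression that TCF7L1 exerts on genes of the naive pluripotency network, and elsewhere it activates target genes together with other TCF/LEF factors. GSK3 also acts outside the Wnt pathway, on glycogen synthase, on the stability of MYC and on signalling from the insulin receptor. LIF acts through the JAK kinases and STAT3, and PD0325901 blocks the kinase that activates ERK.

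The 4 wild-type libraries were of like depth, at 11.8 to 14.1 M fragments, a depth read off the spacing of the smallest FPKM values. 1 fragment on 1000 bases was then worth 0.0709 to 0.0849 FPKM. The median difference between replicates on the log2(FPKM + 1) scale was 0.10 in 2i + LIF and 0.11 in PD + LIF. The defining markers of ESCs were present in both media, with Pou5f1 at 704 and 705 FPKM in 2i + LIF and 413 and 420.4 FPKM in PD + LIF, Sox2 at 149 and 144 FPKM in 2i + LIF and 185 and 173 FPKM in PD + LIF and Zfp42 at 244 and 251 FPKM in 2i + LIF and 155 and 151 FPKM in PD + LIF. Trincr1 was at 5.705 and 9.45 FPKM in 2i + LIF and 6.18 and 6.56 FPKM in PD + LIF and was not called. Of the 11 fibroblast and feeder markers, Dcn, Col3a1 and Fap were at 0 in the 4 samples, and the list summed to 1.26 to 1.64 FPKM in 2i + LIF and 4.69 to 5.20 FPKM in PD + LIF. Of its 5 members tested 2 rose, Thy1 from 0.870 and 0.272 FPKM to 3.00 and 3.75 FPKM and Col1a1 to at most 0.446 FPKM, and Col1a1 was no longer called without any 1 of the wild-type libraries (adjusted p of limma 0.0623 to 0.127). In bulk RNA, fewer cells of a type and less RNA per cell cannot be told apart.

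Between 2i + LIF and PD + LIF 8048 of the 15430 genes, 52.2% of those tested, differed at an adjusted p under 0.05 (limma, Benjamini-Hochberg over all genes tested). In PD + LIF 4765 genes (30.9%) were higher and 3283 (21.3%) were lower. Counts of list members below are to be read against these shares and, for lists of abundant genes, against the shares at their level given below. On the log2(FPKM + 1) scale, on which every fold change below is given and which understates the change of genes near 1 FPKM, the median over all genes was 0.08 and the central range from the 5th to the 95th percentile was -0.83 to 1.24. A rise above 1 was seen in 1265 genes (8.2%) and a fall below -1 in 476 (3.08%), whereas 1469 rises and 1557 falls were smaller than 0.5. None of the called genes had replicates that overlapped between media. Over all genes tested, the replicates of 11795 (76.4%) did not overlap. By the study's rule of a ratio above 2 with an average of at least 1 FPKM, 1660 genes (10.8%) were higher and 673 (4.36%) lower. The number of genes above 0 FPKM was 17849 and 17786 in 2i + LIF and 18718 and 18385 in PD + LIF. The split of calls moved with the scaling of the samples, since quantile normalization gave 3803 higher and 3946 lower genes, so that 49.1% of calls were higher against 59.2% without it.

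**Figure D1:**
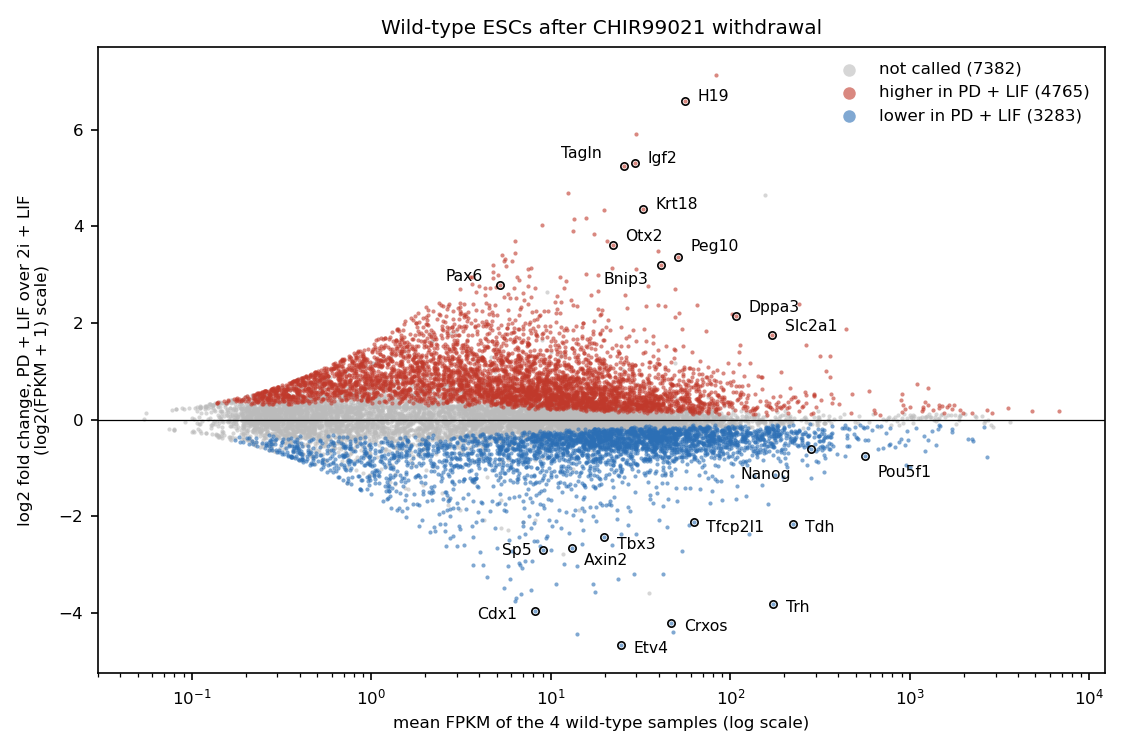
Each point is 1 gene tested, with its mean FPKM over the 4 wild-type samples on a log axis and its log2 fold change in PD + LIF over 2i + LIF, coloured by the limma call (4765 higher, 3283 lower, 7382 not called). Circled genes are a selection of those named in the text, and among the circled ones H19 (6.59) and Igf2 (5.30) lie highest and Etv4 (-4.66) lowest.

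The largest fall was of Etv4, a transcription factor induced by FGF and ERK signalling, which was at 46.4 and 50.4 FPKM in 2i + LIF and 0.965 and 0.9398 FPKM in PD + LIF (-4.66 ± 0.16, with ± as the SE here and below, adjusted p = 4.28e-06, limma). Trh, the precursor of thyrotropin-releasing hormone, was at 325 and 322 FPKM in 2i + LIF and 22.8 and 21.6 FPKM in PD + LIF, and Crxos, a homeobox gene of ESCs, at 90.2 and 89.5 FPKM in 2i + LIF and 3.69 and 4.13 FPKM in PD + LIF. The antioxidant enzyme Gpx2 fell from 95.6 and 89.7 FPKM to 4.19 and 2.804 FPKM. The homeobox genes Cdx1, Nkx1-2 and Nkx6-2, the peptidoglycan-binding protein Pglyrp1, the imprinted zinc finger gene Plagl1 and the uncharacterised gene Gm694 completed the 10 largest falls. Their fold changes lay between -3.57 ± 0.29 and -4.43 ± 0.30, and Gm694 was listed at 0 in both PD + LIF samples.

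The largest rises included the imprinted pair H19 and Igf2. H19, a noncoding RNA, was at 0.291 and 0.0504 FPKM in 2i + LIF and 104 and 118 FPKM in PD + LIF (6.59 ± 0.12, adjusted p = 1.35e-06, limma), and its neighbour Igf2, a fetal growth factor, was at 0.616 and 0.402 FPKM in 2i + LIF and 52.02 and 65.3 FPKM in PD + LIF (5.30 ± 0.13). The actin-binding protein Tagln rose from 0.422 and 0.241 FPKM to 40.03 and 61.4 FPKM, and Krt18, a keratin of simple epithelia, from 1.81 and 2.45 FPKM to 60.6 and 65.9 FPKM. Car4, a membrane carbonic anhydrase, was listed at 0 in both 2i + LIF samples and at 23.8 and 26.04 FPKM in PD + LIF. Rhox9 and Esx1 are homeobox genes of the X chromosome known from placenta, and Esx1 rose from 0.522 and 0.559 FPKM to 26.99 and 25.5 FPKM. Reads of Rhox9 cannot be told with certainty from those of its close copy Rhox6. The remaining members of the 10 are less certain. The pseudogenes Gm14870 and Gm7079 can share reads with the genes they copy, and Gm14870, listed at 0 in both 2i + LIF samples and at 73.96 and 257 FPKM in PD + LIF, was not called without any 1 of the wild-type libraries (adjusted p 0.104 to 0.186). The table's entry for Fgfr2 spans chr7:130162450-133123350 (GRCm38), the longest of the genes tested, and holds other genes such as Ate1, so that its rise from 1.28 and 0.684 FPKM to 39.6 and 37.9 FPKM may not be of the receptor alone.

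Among abundant RNAs, the largest rises in FPKM were of the elongation factors Eef1a1 and Eef2, mt-Co1, Rpl13a and Aldoa, and the largest falls of the histone variant H2afz, Mt2, mt-Nd1, mt-Cytb and Npm1. Eef2 rose from 995 and 969.8 FPKM to 1517 and 1558 FPKM (0.65 ± 0.04). H2afz fell from 1422 and 1229.6 FPKM to 631 and 714 FPKM (-0.98 ± 0.10). Eef1a1, at 6135 and 6531 FPKM in 2i + LIF and 7204 and 7170.3 FPKM in PD + LIF, was called with a fold change of 0.18 ± 0.04 but had a fold change of 0.00 after quantile normalization. The same held for mt-Co1, which was also not called without 2i + LIF replicate 2 (adjusted p = 0.0916) or either PD + LIF replicate (adjusted p 0.0819 and 0.0509, limma).

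The direction of the calls differed with the level of the gene under the reported scaling. Among genes with a mean of 1 to 5 FPKM, 38.5% were higher and 13.8% lower in PD + LIF, whereas among genes above 100 FPKM 18.6% were higher and 54.0% lower. Genes of 5 to 20 FPKM lay between, with 36.8% higher and 20.5% lower. Protein-coding genes were called more often (34.0% higher, 23.1% lower) than lincRNAs (16.2% and 10.6%), antisense genes (13.9% and 9.64%) or pseudogenes (6.67% and 9.31%). These shares are descriptive, and the part of the level of a gene in the difference between gene types was not tested.

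**Figure D2:**
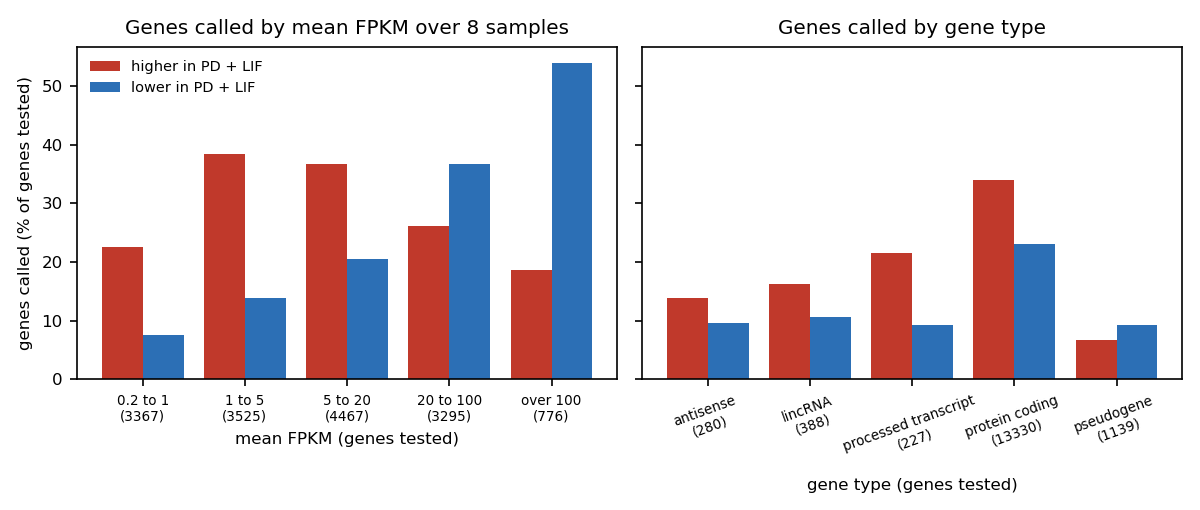
Share of genes called higher (red) or lower (blue) in PD + LIF, in percent of the genes tested, by mean FPKM over 8 samples on the left and by gene type on the right, with the number tested in brackets. Falls outnumbered rises above 20 FPKM (36.7% against 26.2% at 20 to 100 FPKM), and rises outnumbered falls below it.

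Feedback genes and transcription factors that serve as readouts of Wnt signalling were among the strongest falls, but not all fell. Of 17 Wnt target genes tested 9 fell and 4 rose, with a median of -0.36 against 0.08 over all genes. Axin2, which feeds back on the pathway by promoting the destruction of β-catenin, was at 23.3 and 23.2 FPKM in 2i + LIF and 3.12 and 2.605 FPKM in PD + LIF, 8.13-fold lower (-2.66 ± 0.13, adjusted p = 1.16e-05, limma). Sp5, a transcription factor induced by Wnt signals in many tissues, was at 18.8 and 14.2 FPKM in 2i + LIF and 1.51 and 1.81 FPKM in PD + LIF (9.93-fold lower, -2.71 ± 0.14). Notum, a secreted enzyme that inactivates Wnt ligands, was at 43.4 and 33.5 FPKM in 2i + LIF and 5.11 and 5.81 FPKM in PD + LIF (-2.60 ± 0.12). In each of these genes the samples of the 2 media did not overlap, as in 76.4% of all genes tested. Cdx1, a caudal-type homeobox gene, went from 17.6 and 14.9 FPKM to 0 and 0.222 FPKM, and T (brachyury), the founding member of the T-box family, from 2.03 and 1.61 FPKM to 0.0389 and 0.186 FPKM. Ccnd1, cyclin D1, was 2.52-fold lower at 23.04 and 27.6 FPKM, and the receptor Tnfrsf19 fell by 0.70 on the log2 scale. The ligase Znrf3 fell by 0.36 on that scale, but was not called without any 1 of the wild-type libraries (adjusted p 0.0505 to 0.106, limma).

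The 4 listed targets that rose stayed at a low level, below 4 FPKM in every sample. Lef1, the TCF family member that often marks active Wnt signalling, rose from 1.81 and 1.896 FPKM to 3.71 and 3.94 FPKM (0.76 ± 0.16). The feedback inhibitors Nkd1 and Nkd2 rose from 0.361 and 0.382 to 1.33 and 1.64 FPKM and from 0.287 and 0.224 to 0.828 and 1.51 FPKM. Ascl2, a target in intestinal stem cells that is also imprinted and expressed in trophoblast, rose from 0.773 FPKM in both 2i + LIF samples to 3.47 and 2.63 FPKM. Tcf7, another TCF family gene, was at 22.9 and 20.3 FPKM in 2i + LIF and 24.8 and 24.7 FPKM in PD + LIF and was not called (adjusted p = 0.0865, limma).

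The promoter of Sp5 is shown because Sp5 was the only 1 of 12 listed Wnt targets with a RefSeq promoter in which the core of the TCF/LEF site, CTTTGAT on either strand, was found. The window runs from 250 bases before to 50 bases after the start of the gene, chr2:70474673-70474972 on the plus strand of GRCm38.p6, and capitals mark the match, whose first base lies at position -104 relative to the start.
Sp5: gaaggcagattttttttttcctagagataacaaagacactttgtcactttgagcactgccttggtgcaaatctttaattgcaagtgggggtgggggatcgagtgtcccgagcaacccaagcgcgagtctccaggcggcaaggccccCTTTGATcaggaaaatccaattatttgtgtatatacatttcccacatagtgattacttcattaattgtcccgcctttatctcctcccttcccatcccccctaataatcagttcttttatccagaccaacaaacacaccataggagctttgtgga
The same letters were present in 2.37% of 10313 promoters of tested genes, in 2.84% of those of genes that fell and in 1.95% of those of genes that rose. A match is a description of the sequence and not a bound site, and TCF/LEF sites outside this window were not searched.

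Components of the Wnt pathway changed in both directions, with 20 of 46 tested higher and 7 lower (median 0.23). On the ligand side Wnt5b fell from 5.52 and 5.81 FPKM to 0.375 and 0.537 FPKM, and Porcn, the acyltransferase that lipidates Wnt ligands, fell from 3.795 and 5.35 FPKM to 0.103 and 0.381 FPKM (-2.16 ± 0.17, adjusted p = 6.83e-05, limma). Wls, which carries Wnts to the cell surface, rose from 3.795 and 3.94 FPKM to 10.5 and 12.2 FPKM, and Wnt7b rose from at most 0.0782 to 1.27 and 1.24 FPKM. The receptors split as well. Fzd2 rose from 2.63 and 2.39 FPKM to 13.8 and 15.8 FPKM and Fzd7 from 4.703 and 4.97 FPKM to 17.6 and 19.2 FPKM, whereas Fzd10 fell from 18.5 and 17.4 FPKM to 6.82 and 5.74 FPKM and Fzd5 from 22.8 and 23.4 FPKM to 12.6 and 12.7 FPKM. The coreceptor Lrp6 was not called at 13.8 and 12.4 FPKM in 2i + LIF and 14.03 and 14.2 FPKM in PD + LIF. Of the 10 members of the destruction complex and its regulators 5 rose and 0 fell (limma, 0 also at an unadjusted p under 0.05), and the rises included the dishevelled genes Dvl1 and Dvl2. Gsk3b itself (13.4 and 14.3 FPKM in 2i + LIF and 15.7 and 15.8 FPKM in PD + LIF), Axin1 and Apc were not called. Ctnnb1, the gene of β-catenin, rose from 162 and 172 FPKM to 258 and 265 FPKM (0.64 ± 0.06, adjusted p = 0.000129, limma), and its coactivator Bcl9l from 2.85 and 2.99 FPKM to 9.42 and 8.95 FPKM. Tcf7l1 was at 44.7 and 42.3 FPKM in 2i + LIF and 40.4 and 39.5 FPKM in PD + LIF and was not called (adjusted p = 0.0788), although with median-ratio scaling it was called lower (-0.18, adjusted p = 0.0168). The table gives RNA, and the amount of β-catenin protein was not measured in these files.

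Transcription factors of the naive network fell nearly throughout. Of 15 tested, 14 fell and 1 rose, and the sum of their FPKM went from 1549 and 1539 in 2i + LIF to 943 and 934 in PD + LIF. The largest falls were of Tbx3, at 34.7 and 33.7 FPKM in 2i + LIF and 5.64 and 5.46 FPKM in PD + LIF (-2.43 ± 0.07, adjusted p = 3.51e-06, limma), Tfcp2l1, at 104 and 101 FPKM in 2i + LIF and 24.2 and 21.5 FPKM in PD + LIF (-2.12 ± 0.07), and Spic, at 22.9 and 20.6 FPKM in 2i + LIF and 4.95 and 4.63 FPKM in PD + LIF. Nr0b1, a partner of the network on the X chromosome, fell 3.71-fold and Gbx2, a target of LIF and STAT3, 4.88-fold. Klf4, which LIF also sustains, went from 66.5 and 60.6 FPKM to 28.1 and 30.8 FPKM. Esrrb and Nanog, which TCF7L1 is known to repress, had smaller fold changes. Esrrb was at 164 and 167 FPKM in 2i + LIF and 109 and 109 FPKM in PD + LIF (-0.59 ± 0.06) and Nanog at 339.9 and 343 FPKM in 2i + LIF and 236 and 209 FPKM in PD + LIF (-0.62 ± 0.07). Zfp42, Klf5, Prdm14 and Nr5a2 fell with fold changes of -0.69, -0.50, -0.83 and -1.04. All named members were still detected in PD + LIF, the lowest being Gbx2 at 2.84 and 2.88 FPKM.

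Klf2 was the factor that rose, from 114 and 104 FPKM to 130.4 and 135 FPKM (0.28 ± 0.07, adjusted p = 0.0157, limma), but the call was lost without 2i + LIF replicate 2 (adjusted p = 0.0989) or either PD + LIF replicate (adjusted p 0.0534 and 0.0843). Other genes of naive ESCs parted from the factors. Dppa3 (Stella), which protects the maternal genome from demethylation in the zygote, rose 4.47-fold from 44.1 and 34.3 FPKM to 185 and 165 FPKM. The growth factor Fgf4 was not called, at 78.99 and 79.4 FPKM in 2i + LIF and 82.8 and 81.3 FPKM in PD + LIF. Nor was Fbxo15, a target of OCT4 and SOX2, at 152 and 155 FPKM in 2i + LIF and 165 and 159 FPKM in PD + LIF. Tdh, the enzyme by which mouse ESCs break down threonine, fell 4.504-fold from 359 and 371 FPKM to 81.1 and 81.05 FPKM (-2.16 ± 0.05, adjusted p = 1.98e-06, limma). In all, 15 of the 21 naive genes fell and 2 rose. Quantile normalization called 4 higher, Fgf4 and Fbxo15 among them, and 1 was higher without 2i + LIF replicate 2 or either PD + LIF replicate.

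**Figure D3:**
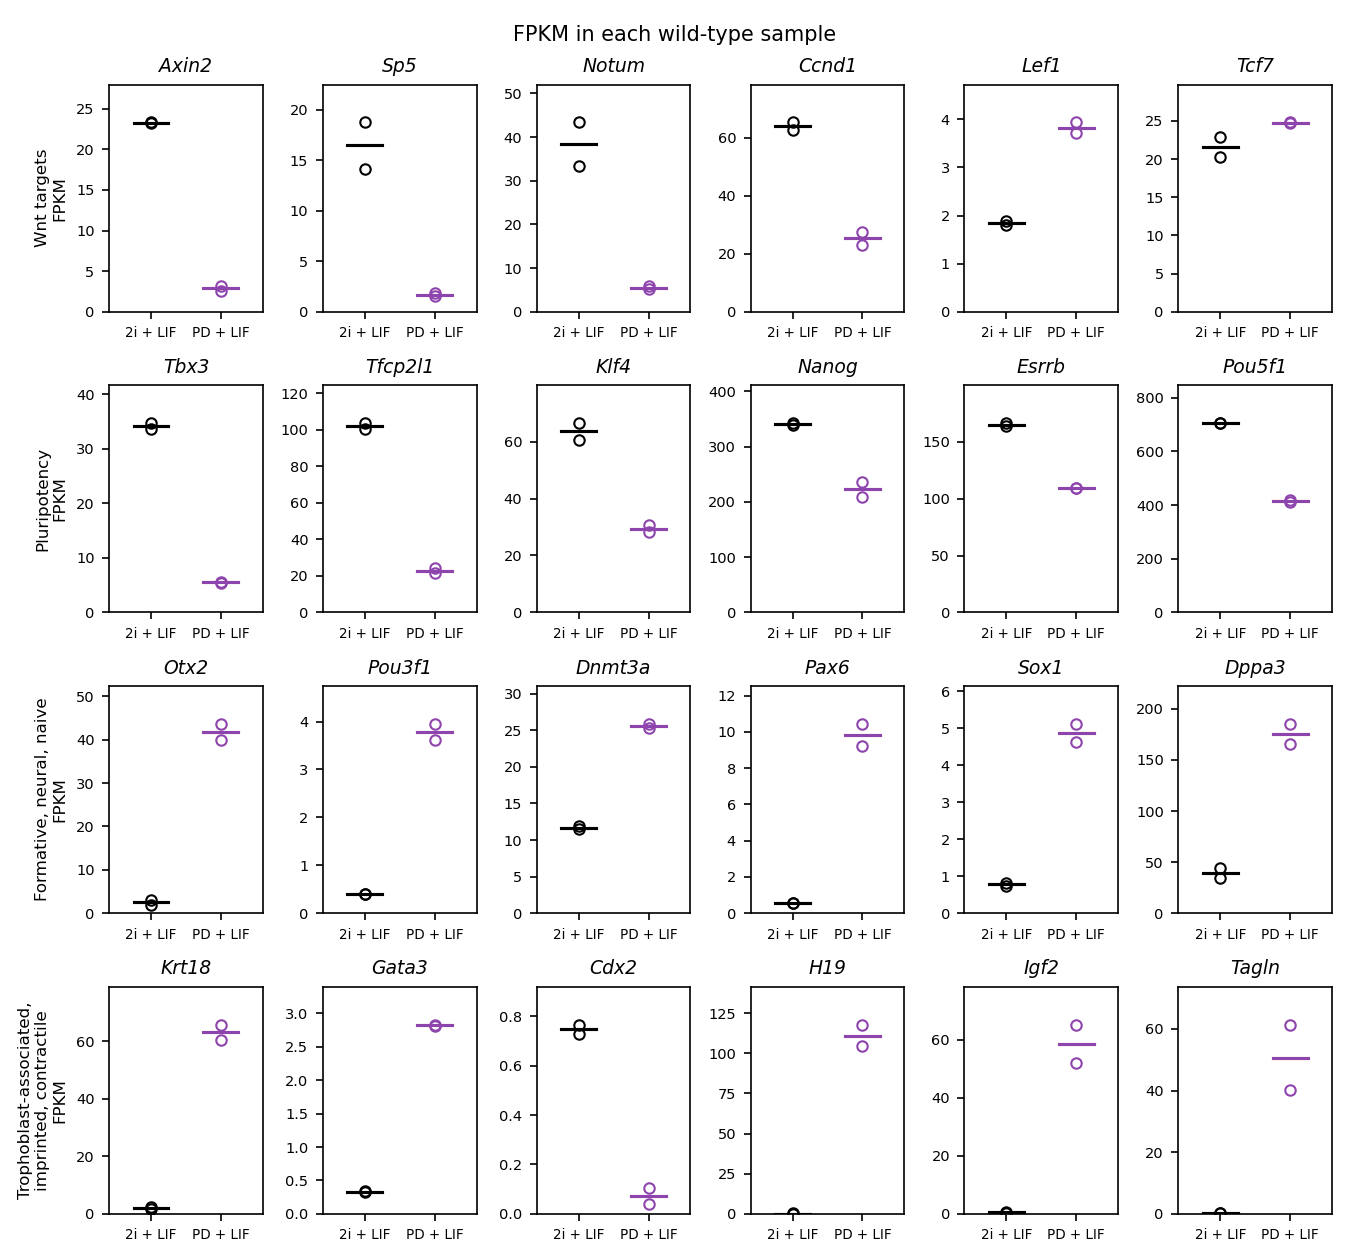
FPKM of 24 genes in each of the 4 wild-type samples (circles) with the mean of each group (line), 1 panel a gene with its own axis from 0, in rows for Wnt targets, pluripotency factors, formative, neural and naive genes, and trophoblast-associated, imprinted and contractile genes. Axin2, Tbx3 and Tfcp2l1 fall, Lef1, Otx2, Pax6, Dppa3, Krt18, H19 and Tagln rise, and Cdx2 falls at a level under 0.8 FPKM.

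General pluripotency genes showed no common direction, with 5 of 14 higher and 5 lower. Pou5f1 (Oct4) fell to 413 and 420.4 FPKM from 704 and 705 FPKM (-0.76 ± 0.04, adjusted p = 1.68e-05, limma), whereas Sox2 rose slightly (0.29 ± 0.06, adjusted p = 0.00696, and 0.0509 without PD + LIF replicate 1). L1td1 and Dppa2 fell 2.29-fold and 2.17-fold. Lin28a, an RNA-binding protein that blocks let-7 maturation, rose from 58.7 and 61.5 FPKM to 99.04 and 112 FPKM, and its relative Lin28b from 2.07 and 1.98 FPKM to 4.37 and 4.63 FPKM. Without 2i + LIF replicate 2 or PD + LIF replicate 1, 3 of the 14 were called higher.

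Genes of the formative and primed epiblast, the state that follows the naive one, rose as a group. Of 19 tested 17 rose and 1 fell, with a median of 1.35. Otx2, which directs the exit from the naive state, was at 3.15 and 1.98 FPKM in 2i + LIF and 40.01 and 43.7 FPKM in PD + LIF, 16.3-fold higher (3.61 ± 0.15, adjusted p = 6.13e-06, limma). Pou3f1 (Oct6) was at 0.409 and 0.402 FPKM in 2i + LIF and 3.62 and 3.95 FPKM in PD + LIF and Fgf5 at 0 and 0.0721 FPKM in 2i + LIF and 1.12 and 1.45 FPKM in PD + LIF, so that both stayed at a low level. The de novo DNA methyltransferases Dnmt3a (11.96 and 11.5 FPKM in 2i + LIF and 25.4 and 25.9 FPKM in PD + LIF) and Dnmt3b (44.2 and 43.2 FPKM in 2i + LIF and 65.4 and 79.4 FPKM in PD + LIF) rose 2.19-fold and 1.66-fold. Sox4 and Sox11, related factors of many progenitors, rose 4.63-fold and 4.87-fold, and Sfrp2, a secreted Wnt inhibitor, 5.65-fold. The member that fell was Foxd3, a forkhead factor of ESCs and neural crest, from 13.7 and 14.1 FPKM to 3.07 and 3.79 FPKM (-1.76 ± 0.12).

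Neural genes followed in part, with 9 of 16 higher and 2 lower (median 0.92). Pax6 rose from 0.558 and 0.5701 FPKM to 9.25 and 10.4 FPKM (2.79 ± 0.17), Irx3 from at most 0.104 to 4.93 and 4.46 FPKM, and Sox1, the earliest marker of neural plate, from 0.733 and 0.819 FPKM to 4.62 and 5.12 FPKM (adjusted p = 4.62e-05, limma). The progenitor filament Nes rose 2.46-fold. En2 and Stmn2 fell, Stmn2 from 111 and 114 FPKM to 74.6 and 76.5 FPKM. Dcx, of migrating neurons, and the proneural factor Neurog2 reached at most 0.0708 FPKM, and Fabp7, of radial glia, was listed at 0 in all 4 samples. The neural list summed to 142 and 143 FPKM in 2i + LIF and 148 and 152 FPKM in PD + LIF. Its part in the response of other genes was not tested.

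Genes of the primitive streak and mesendoderm went the opposite way, with 7 of 13 lower and 1 higher, and the list summed to 45.8 and 45.0 FPKM in 2i + LIF and 11.8 and 11.0 FPKM in PD + LIF. With the filter at 1 FPKM 4 were lower. Besides Cdx1 and T, Nkx1-2 fell from 11.97 and 13.4 FPKM to 0.06996 and 0.0558 FPKM (-3.68 ± 0.12, adjusted p = 3.94e-06, limma), Evx1 from 1.12 and 1.30 FPKM to 0.0802 and 0.128 FPKM, and Eomes from 3.16 and 2.93 FPKM to 1.46 and 1.63 FPKM. Fgf8, a signal of the streak and of the early brain, rose to 1.04 and 0.815 FPKM. Mixl1, Sox17, Mesp1 and Lhx1 were too low to be tested, at no more than 0.357 FPKM in any of the 4 samples. Hox genes, which pattern the body axis, were low throughout. Of 15 tested 6 fell and 0 rose (limma, 1 at an unadjusted p under 0.05), and quantile normalization called 10 lower. Hoxc4 was at 4.58 and 4.16 FPKM in 2i + LIF and 0.3902 and 0.3805 FPKM in PD + LIF (-1.95 ± 0.11), Hoxc12 at 3.35 and 2.34 FPKM in 2i + LIF and 0.438 and 0 FPKM in PD + LIF and Hoxb9 at 1.81 and 1.77 FPKM in 2i + LIF and 0.243 and 0.414 FPKM in PD + LIF.

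Primitive endoderm genes were mixed, with 5 of 12 higher and 3 lower. The basement membrane genes Col4a1 (1.42 and 1.75 FPKM in 2i + LIF and 8.72 and 8.45 FPKM in PD + LIF), Col4a2 and Lamb1 (5.06 and 4.102 FPKM in 2i + LIF and 18.9 and 19.5 FPKM in PD + LIF) rose, as did Dab2 (0.193 and 0.188 FPKM in 2i + LIF and 2.16 and 1.95 FPKM in PD + LIF) and Gata4 (0.564 and 0.8405 FPKM in 2i + LIF and 2.34 and 2.01 FPKM in PD + LIF), while Sparc and Fst fell. The defining factors Gata6, Sox17 and Sox7 remained at or below 0.267 FPKM in every sample and were not tested. Markers of the 2-cell-like state stayed low, and 0 of 4 tested were called (limma, 0 also at an unadjusted p under 0.05), with Zscan4c at 0 in both PD + LIF samples and Zscan4d at 0.217 and 0.358 FPKM in 2i + LIF and 0.381 and 0.0527 FPKM in PD + LIF. Germline genes split into 6 higher and 5 lower of 15. The synaptonemal complex gene Sycp3 rose from 1.73 and 1.66 FPKM to 6.14 and 6.38 FPKM and Mael, of the piRNA pathway, from 0.373 and 0.932 FPKM to 2.14 and 1.98 FPKM, whereas Dazl, an RNA-binding protein of germ cells, fell from 3.997 and 3.71 FPKM to 1.28 and 0.966 FPKM. Quantile normalization called 8 germline genes lower, and without PD + LIF replicate 1 the count was 3.

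Of 16 trophoblast genes tested 12 rose and 3 fell (median 1.73), but the members that rose and fell differ in kind. The list summed to 49.7 and 51.9 FPKM in 2i + LIF and 307 and 289 FPKM in PD + LIF, of which Krt8, Krt18, Rhox6, Rhox9, Esx1 and Tfap2c made up most. Krt8, the partner of Krt18, rose from 10.9 and 13.3 FPKM to 62.01 and 71.8 FPKM and Tfap2c from 15.4 and 12.6 FPKM to 49.03 and 42.1 FPKM. Gata3 was at 0.322 and 0.336 FPKM in 2i + LIF and 2.83 and 2.82 FPKM in PD + LIF (1.52 ± 0.12, adjusted p = 7.37e-05, limma) and Gata2 at 0.3001 and 0.354 FPKM in 2i + LIF and 4.23 and 3.23 FPKM in PD + LIF. Hand1, listed at 0 in both 2i + LIF samples, reached only 0.465 and 0.481 FPKM. Of the 11 listed trophoblast transcription factors tested, 8 rose and 3 fell. Cdx2, Eomes and Elf5, which are used as markers of trophoblast stem cells, were at a low level. Cdx2 fell from 0.727 and 0.766 FPKM to 0.104 and 0.0416 FPKM, Eomes fell as given above, and Elf5, too low to be tested, was at 0 in both PD + LIF samples. Tpbpa and Prl3d1, markers of differentiated placental cells, were at 0 in all 4 samples. Tfap2a also fell, from 4.76 and 4.14 FPKM to 0.9401 and 0.771 FPKM.

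Imprinted genes, which are expressed from 1 parental allele, rose in 20 of 27 cases and fell in 1 (median 0.75), and their FPKM summed to 529 and 523 in 2i + LIF and 1217 and 1255 in PD + LIF. They include genes expressed from the maternal allele (H19, Cdkn1c, Phlda2, Meg3) and from the paternal allele (Igf2, Peg3, Peg10, Sgce). Cdkn1c, an inhibitor of cyclin-dependent kinases, was at 2.11 and 2.02 FPKM in 2i + LIF and 42.7 and 34.9 FPKM in PD + LIF (3.69 ± 0.13, adjusted p = 5.41e-06, limma). Peg10 was at 8.96 and 7.402 FPKM in 2i + LIF and 103 and 83.6 FPKM in PD + LIF and its neighbour Sgce at 0.451 and 0.927 FPKM in 2i + LIF and 6.39 and 9.64 FPKM in PD + LIF. Peg3, Phlda2 and Gnas rose 5.54-fold, 4.56-fold and 2.96-fold. Meg3 and Rian, noncoding RNAs of 1 cluster on chromosome 12, rose less, Meg3 from 109 and 102 FPKM to 188 and 204 FPKM. Plagl1, a zinc finger factor, was the exception and fell from 32.9 and 34.1 FPKM to 1.995 and 1.82 FPKM (-3.57 ± 0.29). Alleles were not separated in these values.

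Most epithelial genes rose, while E-cadherin and vimentin fell. Of 17 epithelial genes tested 12 rose and 3 fell (median 1.45). The largest of these falls, of Ocln (-0.70 ± 0.24), was not called with a pseudocount of 0.1 or 0.5 FPKM (adjusted p 0.107 and 0.0611, limma). Without the filter on low values it was not called either (adjusted p = 0.085). Cldn6, a claudin of pluripotent cells, was at 7.56 and 5.96 FPKM in 2i + LIF and 45.95 and 43.8 FPKM in PD + LIF (2.57 ± 0.10, adjusted p = 6.13e-06, limma), and the splicing factor Esrp1 at 2.74 and 2.11 FPKM in 2i + LIF and 19.1 and 19.2 FPKM in PD + LIF. Epcam rose 2.81-fold and Cdh3 (P-cadherin) 5.09-fold, whereas Cdh1 (E-cadherin) fell from 188 and 182 FPKM to 143 and 142 FPKM (-0.37 ± 0.05). Of 7 mesenchymal genes 3 rose and 1 fell. The intermediate filament Vim fell from 187 and 188 FPKM to 72.4 and 95.8 FPKM, and Zeb2 and Cdh2 rose to at most 2.60 FPKM.

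Contractile and cytoskeletal genes that SRF or YAP regulate rose in 12 of 15 cases and fell in 2 (median 1.76). Besides Tagln, Myl9 was at 0.206 and 0.182 FPKM in 2i + LIF and 9.47 and 11.96 FPKM in PD + LIF (3.29 ± 0.16, adjusted p = 1.14e-05, limma), Tpm2 at 2.19 and 3.12 FPKM in 2i + LIF and 24.6 and 32.5 FPKM in PD + LIF, Tpm1 at 34.9 and 36.9 FPKM in 2i + LIF and 153 and 183 FPKM in PD + LIF and Acta2 at 0 and 0.105 FPKM in 2i + LIF and 5.96 and 8.48 FPKM in PD + LIF. Among genes better known as YAP targets, Cyr61 rose 3.68-fold and Amotl2 2.55-fold, whereas Ctgf fell from 15.9 and 15.5 FPKM to 6.89 and 8.41 FPKM. The other fall, of Actb, was called with a fold change of -0.25 ± 0.06 and was lost without 2i + LIF replicate 1 (adjusted p = 0.0724) or PD + LIF replicate 1 (adjusted p = 0.0636, limma), which left 1 fall.

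PD0325901 was present in both media, and of 23 ERK target genes tested 14 fell and 5 rose (median -0.57). Besides Etv4, its relatives Etv5 and Etv1 fell, Etv5 from 110.3 and 114 FPKM to 66.04 and 72.9 FPKM (-0.68 ± 0.05, adjusted p = 6.59e-05, limma) and Etv1 from 5.67 and 7.57 FPKM to 0.537 and 0.747 FPKM. The feedback inhibitors Spry4 (3.38 and 4.04 FPKM in 2i + LIF and 0.130 and 0.0972 FPKM in PD + LIF), Dusp6 (5.599 and 5.11 FPKM in 2i + LIF and 1.57 and 1.98 FPKM in PD + LIF) and Spry2 (26.5 and 24.4 FPKM in 2i + LIF and 13.7 and 16.02 FPKM in PD + LIF) fell too, and Myc went from 7.49 and 10.5 FPKM to 3.60 and 3.95 FPKM. Other feedback genes rose, with Dusp5 at 1.32 and 0.913 FPKM in 2i + LIF and 4.85 and 6.52 FPKM in PD + LIF and Dusp4 at 0.752 and 0.914 FPKM in 2i + LIF and 3.296 and 3.199 FPKM in PD + LIF. Egr1, an immediate early gene, was too low to be tested, at no more than 0.146 FPKM. Several of the fallen members, Ccnd1 and Myc among them, are also known Wnt targets. What each pathway contributed was not tested.

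Components from the FGF receptor to ERK were higher in 8 of 20 cases and lower in 3 (median 0.11). These shares of 40% and 15% were near those over all genes tested, 30.9% and 21.3%. Mapk3 (ERK1) rose from 24.98 and 21.9 FPKM to 51.9 and 56.9 FPKM (1.18 ± 0.08, adjusted p = 3.6e-05, limma) and Fgfr1 from 33.7 and 33.6 FPKM to 47.1 and 48.5 FPKM. Map2k2, a target of PD0325901, fell by 0.30 on the log2 scale. Shcbp1, a partner of TRIM71 in this study, was not called at 29.5 and 32.8 FPKM in 2i + LIF and 26.3 and 27.8 FPKM in PD + LIF (adjusted p = 0.068), although with median-ratio scaling it was called lower (-0.26, adjusted p = 0.0212). Trim71 was at 34.02 and 31.8 FPKM in 2i + LIF and 30.8 and 31.5 FPKM in PD + LIF and was not called, so that of the 3 genes the study centres on 0 were called (limma, 1 at an unadjusted p under 0.05).

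Genes of LIF and STAT3 signalling were split, with 6 of 15 higher and 6 lower. Lifr, the LIF receptor, fell from 11.4 and 10.8 FPKM to 7.47 and 6.71 FPKM (-0.58 ± 0.08, adjusted p = 0.00103, limma). Socs3, the feedback inhibitor that reads out STAT3 activity, was not called at 30.9 and 31.2 FPKM in 2i + LIF and 32.4 and 32.3 FPKM in PD + LIF. Pim3 rose from 28.6 and 30.03 FPKM to 58.99 and 63.3 FPKM and Junb from 7.12 and 6.403 FPKM to 11.7 and 13.8 FPKM, while Bcl3, like Klf4 and Gbx2, fell, from 32.9 and 29.96 FPKM to 14.1 and 15.3 FPKM. Without 2i + LIF replicate 1, 3 members were called higher.

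In the Nodal pathway 4 of 6 ligand genes fell and 1 rose, Nodal from 22.5 and 23.6 FPKM to 12.3 and 11.8 FPKM (-0.88 ± 0.09, adjusted p = 0.000191, limma) and Gdf3 from 68.1 and 71.05 FPKM to 37.6 and 38.2 FPKM. Of the 19 members in all, 8 fell and 6 rose. The receptor Acvr2b rose 2.44-fold and Skil, an inhibitor of SMAD proteins, 4.12-fold. Of 5 Nodal targets tested 3 rose and 2 fell. The feedback inhibitor Lefty1 rose from 39.4 and 31.7 FPKM to 64.9 and 53.2 FPKM, whereas its relative Lefty2 fell (-0.75 ± 0.18, adjusted p = 0.0117, limma). The fold change of Lefty2 was -0.64 without 2i + LIF replicate 1 and -0.51 without PD + LIF replicate 2, and neither was called. In the BMP pathway 5 of 17 rose (29.4%) and 2 fell (11.8%), against 30.9% and 21.3% of all genes tested. The ligands parted, Bmp4 going from 8.17 and 7.27 FPKM to 1.41 and 2.04 FPKM (-1.69 ± 0.15) and Bmp7 from 1.42 and 1.24 FPKM to 8.19 and 7.82 FPKM (1.95 ± 0.14). The Id genes, which BMP induces in ESCs, parted as well, with Id3 at 18.4 and 22.02 FPKM in 2i + LIF and 8.75 and 8.22 FPKM in PD + LIF, Id1 at 3.803 and 3.13 FPKM in 2i + LIF and 8.11 and 12.1 FPKM in PD + LIF and Id2 at 2.04 and 1.81 FPKM in 2i + LIF and 4.06 and 5.41 FPKM in PD + LIF. The BMP split turned to 3 higher and 4 lower after quantile normalization. The count of higher BMP genes was 3 without 2i + LIF replicate 2 or either PD + LIF replicate, and 8 without either Trincr1-/- sample in PD + LIF or without the filter on low values.

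Notch pathway genes rose in 9 of 13 cases and fell in 0 (limma, 0 also at an unadjusted p under 0.05, median 1.33). Lfng, which modifies Notch receptors, was at 0.3996 and 0.399 FPKM in 2i + LIF and 8.09 and 8.31 FPKM in PD + LIF (2.72 ± 0.14, adjusted p = 1.18e-05, limma), and the receptor Notch3 at 2.62 and 2.297 FPKM in 2i + LIF and 12.6 and 12.8 FPKM in PD + LIF. The ligand Dll1 rose from 0 and 0.216 FPKM to 2.87 and 3.97 FPKM and the ligand Jag2 from 1.61 and 1.89 FPKM to 9.18 and 10.5 FPKM. Of the targets, Hey1 rose from 0.623 and 0.373 FPKM to 2.72 and 2.78 FPKM, whereas Hes1 was not called at 20.5 and 17.1 FPKM in 2i + LIF and 16.9 and 16.97 FPKM in PD + LIF. Genes of MHC class I presentation rose in 6 of 9 cases with the interferon genes counted in, and fell in 1. B2m, the light chain of MHC class I, was at 8.097 and 7.89 FPKM in 2i + LIF and 31.4 and 34.2 FPKM in PD + LIF (1.91 ± 0.11), Tap1 at 0.211 and 0.752 FPKM in 2i + LIF and 3.38 and 2.96 FPKM in PD + LIF and H2-K1 at 9.54 and 9.66 FPKM in 2i + LIF and 16.7 and 20.2 FPKM in PD + LIF. Quantile normalization, or leaving out either PD + LIF replicate, gave 3 higher. The interferon-induced genes Ifit1, Ifit3 and Isg15 were at or under 0.158 FPKM.

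**Figure D4:**
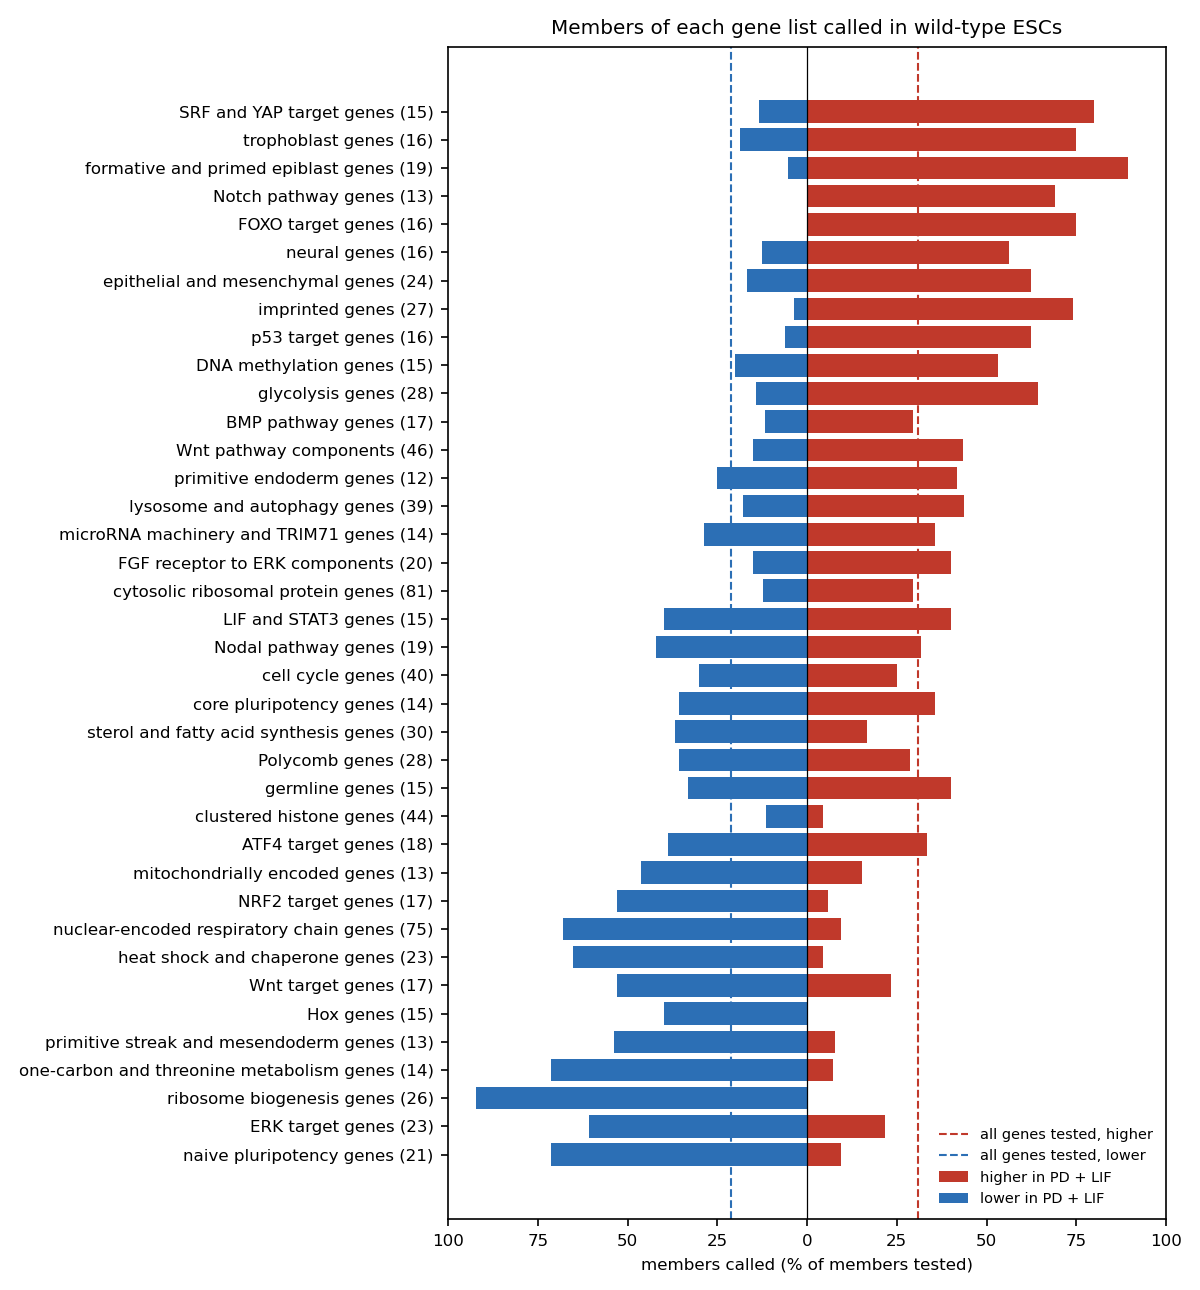
For each gene list with at least 10 members tested, bars give the share of members called higher (red, right) or lower (blue, left) in PD + LIF in percent, with the number tested in brackets and lists ordered by median fold change. Dashed lines mark the shares over all genes tested, 30.9% higher and 21.3% lower, and formative genes (89.5% higher) and ribosome biogenesis genes (92.3% lower) lie farthest from them.

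Targets of FOXO factors, which insulin and AKT signalling holds back, rose in 12 of 16 cases and fell in 0 (limma, 1 at an unadjusted p under 0.05, median 1.05), although median-ratio scaling called 1 lower. Bnip3, an inducer of mitophagy, was at 6.82 and 7.80 FPKM in 2i + LIF and 71.8 and 78.6 FPKM in PD + LIF (10.3-fold, 3.20 ± 0.12, adjusted p = 5.41e-06, limma). Irs2, an adaptor of the insulin receptor, was at 1.67 and 1.58 FPKM in 2i + LIF and 10.9 and 12.96 FPKM in PD + LIF, Txnip, which limits glucose uptake, at 29.8 and 33.5 FPKM in 2i + LIF and 103 and 127 FPKM in PD + LIF, and Pik3ip1, an inhibitor of PI3 kinase, at 1.74 and 0.734 FPKM in 2i + LIF and 8.16 and 9.48 FPKM in PD + LIF. Bnip3, Ddit4 (13.6 and 11.2 FPKM in 2i + LIF and 79.5 and 92.96 FPKM in PD + LIF) and several glycolytic genes are also known to respond to low oxygen, and the labels give no oxygen level. Targets of p53 rose in 10 of 16 cases and fell in 1 (median 0.63). The apoptosis gene Bbc3 (Puma) rose from 5.58 and 5.53 FPKM to 26.99 and 35.3 FPKM and Pmaip1 (Noxa) from 2.75 and 2.58 FPKM to 7.96 and 8.39 FPKM. Perp, a desmosomal protein that also acts in apoptosis, was at 0.931 and 1.03 FPKM in 2i + LIF and 6.55 and 6.61 FPKM in PD + LIF (1.94 ± 0.11). Cdkn1a (p21) was not called at 79.98 and 71.4 FPKM in 2i + LIF and 69.1 and 68.3 FPKM in PD + LIF, and Mdm2 rose 1.62-fold.

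Targets of ATF4, the factor of the amino acid response, split into 7 lower and 6 higher of 18. The genes that fell were Asns, Cth, Psat1, Psph and Shmt2, which are enzymes of amino acid synthesis, with Trib3 and Atf4 itself. Asns, asparagine synthetase, was at 453 and 453 FPKM in 2i + LIF and 207 and 219.9 FPKM in PD + LIF (-1.08 ± 0.05, adjusted p = 7.23e-06, limma), and Cth, of cysteine synthesis, at 57.6 and 59.7 FPKM in 2i + LIF and 20.5 and 19.2 FPKM in PD + LIF. Atf4 fell from 194 and 192 FPKM to 135 and 140.5 FPKM. Ddit4, an inhibitor of mTORC1, rose 6.95-fold, and Cebpb from 2.63 and 1.85 FPKM to 6.92 and 5.74 FPKM. Without 2i + LIF replicate 2, 3 were called higher. Targets of the antioxidant factor NRF2 fell in 9 of 17 cases (52.9%) and rose in 1 (4 after quantile normalization). Their median was -0.18, and of all genes above 100 FPKM 54.0% fell (median -0.17). The NRF2 targets were not matched to genes of their level. Nqo1 was at 41.2 and 46.05 FPKM in 2i + LIF and 17.3 and 12.5 FPKM in PD + LIF (-1.50 ± 0.18), Me1 at 23.6 and 21.5 FPKM in 2i + LIF and 12.1 and 11.6 FPKM in PD + LIF and Pgd, of the pentose phosphate pathway, at 135 and 137 FPKM in 2i + LIF and 78.9 and 75.3 FPKM in PD + LIF. The ferritin light chain Ftl1 was the member that rose, 1.14-fold. Among metallothioneins, Mt1 fell from 1004 and 977 FPKM to 655 and 687 FPKM and Mt2 from 1161 and 1335 FPKM to 653 and 638 FPKM, 2 of 4 tested, and reads of these close copies may not be fully separable.

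Of 28 glycolysis genes 18 rose and 4 fell (median 0.46). The glucose transporter Slc2a1 rose from 80.7 and 74.8 FPKM to 253 and 277 FPKM and Slc2a3 from 228 and 227 FPKM to 453 and 457 FPKM. The lactate exporter Slc16a3 was at 13.02 and 13.9 FPKM in 2i + LIF and 67.95 and 78.2 FPKM in PD + LIF (2.36 ± 0.10, adjusted p = 7.32e-06, limma). Of 19 enzymes 15 rose and 1 fell. The fall was of Hk2 (-0.15 ± 0.04) and was not called after quantile normalization (-0.08, adjusted p = 0.137, limma) or without a variance trend (adjusted p = 0.0846). The phosphofructokinases Pfkm and Pfkl rose 2.79-fold and 2.36-fold, Aldoa went from 803 and 832 FPKM to 1302 and 1436 FPKM and Pgk1 from 244 and 262 FPKM to 449 and 483 FPKM. Ldhb rose 2.49-fold. Ldha was not called at 590.4 and 602 FPKM in 2i + LIF and 609 and 681 FPKM in PD + LIF, although quantile normalization called it higher (0.21, adjusted p = 0.0153). Gapdh was not called at 2969 and 2882 FPKM in 2i + LIF and 2649 and 2762 FPKM in PD + LIF (-0.11 ± 0.04, adjusted p = 0.0542), but was called lower with median-ratio scaling, quantile normalization or a filter at 1 FPKM (adjusted p 0.00642 to 0.0412). The genes that fell include the lactate transporter Slc16a1 and the subunits Pdha1 and Pdhb of pyruvate dehydrogenase, which leads pyruvate into the mitochondrion, Pdha1 from 98.4 and 103 FPKM to 72.1 and 77.1 FPKM.

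Nuclear genes of the respiratory chain fell in 51 of 75 cases (68%) and rose in 7, by small amounts (median -0.24). Their FPKM summed to 14417 and 14682 in 2i + LIF and 11902 and 12201 in PD + LIF. Of all genes above 100 FPKM 54.0% fell (median -0.17), and the respiratory chain genes were not matched to genes of their level. All 9 genes of complex III fell, 22 of 36 of complex I, 7 of 10 of complex IV and 12 of 16 of ATP synthase. Atp5g1, a c subunit of ATP synthase, fell most, from 378 and 408 FPKM to 169 and 172 FPKM (-1.20 ± 0.04, adjusted p = 5.41e-06, limma), followed by Ndufa5 (-0.87 ± 0.10) and Atp5k (-0.84 ± 0.05). Uqcrq and Uqcrb of complex III fell 1.74-fold and 1.67-fold. Cox7a2l, an assembly factor of supercomplexes, rose from 76.6 and 70.1 FPKM to 125 and 127 FPKM. Quantile normalization called 32 lower, and the 7 higher became 2 to 4 without any 1 of the wild-type libraries. Of 13 mitochondrially encoded genes 6 fell and 2 rose, with mt-Nd1 at 3549.7 and 3241 FPKM in 2i + LIF and 2057 and 1935 FPKM in PD + LIF and mt-Cytb at 2636 and 2529 FPKM in 2i + LIF and 1882 and 1900.5 FPKM in PD + LIF. Without 2i + LIF replicate 2 or either PD + LIF replicate 1 was called higher, and mitochondrial reads can also map to nuclear copies.

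**Figure D5:**
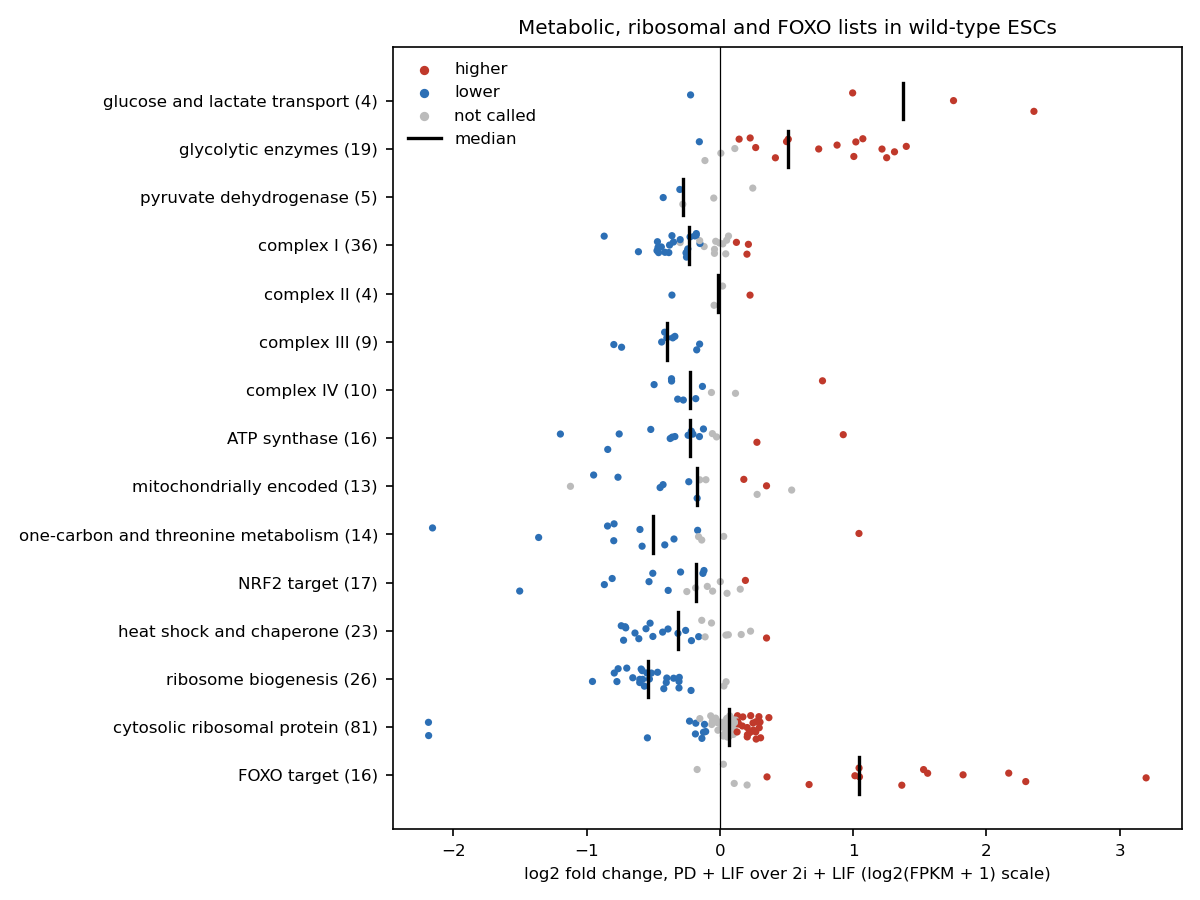
Each point is 1 list member at its log2 fold change in PD + LIF over 2i + LIF, coloured by the limma call, with the median of each list or subgroup as a line and the number tested in brackets. Glycolytic enzymes (median 0.51) and FOXO targets (1.05) lie to the right, and complex III (-0.40), one-carbon metabolism (-0.50) and ribosome biogenesis (-0.54) to the left.

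Of 26 ribosome biogenesis genes 24 fell and 0 rose (limma, 0 also at an unadjusted p under 0.05, median -0.54). Nop2, a methyltransferase of rRNA, was at 112 and 112 FPKM in 2i + LIF and 57.6 and 57.1 FPKM in PD + LIF (-0.96 ± 0.04, adjusted p = 9.95e-06, limma), the assembly factor Rrs1 at 67.4 and 63.6 FPKM in 2i + LIF and 38.03 and 37.8 FPKM in PD + LIF, nucleolin (Ncl) at 776 and 818 FPKM in 2i + LIF and 529.9 and 519 FPKM in PD + LIF and nucleophosmin (Npm1) at 2456 and 2577 FPKM in 2i + LIF and 1925 and 1891 FPKM in PD + LIF. The subunits Polr1a and Polr1b of RNA polymerase I fell 1.54-fold and 1.51-fold. Of 81 ribosomal protein genes 24 rose (29.6%) and 10 fell (12.3%), against 30.9% and 21.3% of all genes tested (median 0.07). Together they made up 20.96 and 21.11% of the FPKM sum in 2i + LIF and 22.67 and 22.91% in PD + LIF. Most changes were small, as in Rpl17 (0.37 ± 0.04) and Rps19 (0.31 ± 0.04). The largest falls were of Rpl39l and Rpl10l, paralogs best known from testis. Rpl39l went from 45.6 and 44.1 FPKM to 8.87 and 9.28 FPKM. Reads of ribosomal protein genes are shared with many pseudogenes, and without 2i + LIF replicate 2 or PD + LIF replicate 1 the falls numbered 5 and 6. Without a variance trend in the model 15 rose and 5 fell.

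Chaperones fell in 15 of 23 cases (65.2%) and rose in 1 (median -0.32). Of all genes above 100 FPKM 54.0% fell (median -0.17), and the chaperones were not matched to genes of their level. In the endoplasmic reticulum Hspa5 (BiP) was at 217 and 217 FPKM in 2i + LIF and 127 and 132 FPKM in PD + LIF (-0.74 ± 0.05, adjusted p = 4.73e-05, limma) and Pdia4 at 113 and 114 FPKM in 2i + LIF and 68.9 and 68.8 FPKM in PD + LIF, while in the cytosol Hspb1 fell from 419 and 408 FPKM to 240.3 and 260.4 FPKM and in mitochondria Hspd1 from 476 and 496 FPKM to 299 and 295 FPKM. Xbp1, a factor of the unfolded protein response, was the member that rose, from 19.8 and 20.8 FPKM to 28.2 and 24.2 FPKM, and quantile normalization called 2 higher. The heat-inducible Hspa1a and Hspa1b were not called, and Hspa1b was at 1.08 and 1.21 FPKM in 2i + LIF and 1.59 and 1.22 FPKM in PD + LIF.

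Enzymes of one-carbon and threonine metabolism fell in 10 of 14 cases and rose in 1 (median -0.50). After Tdh the largest fall was of Mat2a, which makes S-adenosylmethionine, the methyl donor, from 214 and 220.4 FPKM to 84.6 and 83.3 FPKM (-1.36 ± 0.04, adjusted p = 3.72e-06, limma). Shmt1, Shmt2 and Gcat, which acts next to Tdh, fell 1.81-fold, 1.75-fold and 1.76-fold. Gldc, the glycine decarboxylase, rose from 23.8 and 25.3 FPKM to 49.7 and 53.6 FPKM. In lipid synthesis 11 of 30 genes fell and 5 rose (median -0.07). Hmgcs1, which makes a precursor of sterols, rose from 88.7 and 95.4 FPKM to 129 and 146 FPKM while Ebp, an isomerase of sterol synthesis, fell from 25.6 and 33.4 FPKM to 7.74 and 8.64 FPKM. Of the 5 fatty acid genes 4 fell, Fasn from 138 and 131 FPKM to 84.3 and 83.97 FPKM.

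Genes of lysosomes and autophagy rose in 17 of 39 cases (43.6%) and fell in 7 (17.9%), against 30.9% and 21.3% of all genes tested (median 0.15). Of 19 hydrolases 9 rose, among them Hexa, at 25.3 and 23.7 FPKM in 2i + LIF and 58.6 and 53.5 FPKM in PD + LIF (1.16 ± 0.07, adjusted p = 1.98e-05, limma), Ctsd, at 70.1 and 72.4 FPKM in 2i + LIF and 113 and 109.6 FPKM in PD + LIF, and Lipa, at 0.5397 and 0.538 FPKM in 2i + LIF and 2.79 and 2.07 FPKM in PD + LIF, whereas Ctsb fell. Gabarapl1, of the autophagosome, rose 2.54-fold, and the lysosomal channel Mcoln1 from 20.03 and 28.3 FPKM to 46.1 and 46.6 FPKM. Lamp1 was not called at 198 and 209 FPKM in 2i + LIF and 206 and 197 FPKM in PD + LIF. Of the factors that drive these genes, Mitf fell from 12.1 and 10.5 FPKM to 3.55 and 2.93 FPKM and Tfeb from 20.9 and 20.9 FPKM to 15.6 and 16.7 FPKM. Their location in the cell, through which GSK3 is known to act on them, was not measured.

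The full CLEAR core TCACGTGA is the site that TFEB and its relatives bind. The promoters of Mcoln1 and Ctsd are shown because, among called list members holding it, these 2 had the largest changes in either direction. Both rose. The windows are chr8:3500269-3500568 on the plus strand and chr7:142387778-142388077 on the minus strand of GRCm38.p6, read in the direction of the gene, and capitals mark the match, which starts at -46 in Mcoln1 and -99 in Ctsd.
Mcoln1: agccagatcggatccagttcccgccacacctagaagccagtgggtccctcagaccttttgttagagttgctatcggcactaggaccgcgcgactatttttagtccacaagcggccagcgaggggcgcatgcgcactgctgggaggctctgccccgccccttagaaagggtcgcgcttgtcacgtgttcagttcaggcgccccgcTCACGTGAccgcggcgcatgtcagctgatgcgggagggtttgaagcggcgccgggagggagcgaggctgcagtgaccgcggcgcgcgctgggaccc
Ctsd: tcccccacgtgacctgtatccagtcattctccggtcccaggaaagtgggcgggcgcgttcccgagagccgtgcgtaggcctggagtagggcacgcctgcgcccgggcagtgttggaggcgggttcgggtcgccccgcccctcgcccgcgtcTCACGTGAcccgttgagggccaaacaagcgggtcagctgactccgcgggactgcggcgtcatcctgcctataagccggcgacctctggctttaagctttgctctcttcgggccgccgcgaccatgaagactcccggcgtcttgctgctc
The core, which reads alike on both strands, was present in 5 of 31 lysosome and autophagy promoters (16.1%) against 1.89% of all 10313. The 5 comprised Ctsd, Mcoln1 and Atp6v0d1, which rose, and Gla and Atp6v1a, which fell. The calls of the latter pair were lost without some of the libraries, Atp6v1a without replicate 2 of either medium (adjusted p 0.0857 and 0.0859, limma) and Gla without 2i + LIF replicate 1 or either PD + LIF replicate (0.0669 to 0.117). Over all genes the core was present in 1.75% of promoters of genes that rose and 2.30% of those that fell. For the ESRRB site TCAAGGTCA the shares were 0.230% and 0.292%, and for the STAT site TTCNNNGAA 5.80% and 8.31%, each searched on both strands.

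Cell cycle genes were divided by phase. Of 8 genes of G1 cyclins and kinases 5 fell and 1 rose, and of 11 S phase genes 6 fell and 0 rose (limma, 0 also at an unadjusted p under 0.05), whereas of 11 genes of G2 and mitosis 6 rose and 0 fell (1 at an unadjusted p under 0.05). Cdk6, a partner of D cyclins, was at 9.24 and 8.95 FPKM in 2i + LIF and 1.74 and 2.34 FPKM in PD + LIF (-1.74 ± 0.14, adjusted p = 7.62e-05, limma) and Ccne1 at 95.3 and 81.8 FPKM in 2i + LIF and 52.1 and 61.5 FPKM in PD + LIF, while Ccnd2 rose from 0.331 and 0.285 FPKM to 1.48 and 1.58 FPKM. Pcna and Mcm5 of the replication machinery fell 1.44-fold and 1.42-fold, and Mki67 and Ccnb2 rose 1.44-fold and 1.42-fold. The retinoblastoma gene Rb1 rose from 1.15 and 1.17 FPKM to 5.32 and 5.25 FPKM and Cdkn1b (p27) from 15.4 and 15.02 FPKM to 23.6 and 26.01 FPKM. Over the whole list 10 of 40 rose (25%) and 12 fell (30%), against 30.9% and 21.3% of all genes tested. Clustered histone genes, whose RNAs mostly lack a poly(A) tail, summed to 32.5 to 49.1 FPKM in the 4 samples, with 5 of 44 lower and 2 higher. Without any 1 of 2i + LIF replicate 2 and the PD + LIF replicates, 1 to 3 were lower.

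DNA methylation genes rose in 8 of 15 cases and fell in 3. On the side of writing, Dnmt3l rose from 93.5 and 97.9 FPKM to 129 and 148 FPKM together with Dnmt3a and Dnmt3b. Uhrf1, which recruits Dnmt1 to replicated DNA, fell from 241 and 226 FPKM to 146 and 154 FPKM (-0.64 ± 0.05, adjusted p = 4.86e-05, limma), and Dnmt1 was not called at 76.04 and 76.1 FPKM in 2i + LIF and 79.7 and 82.7 FPKM in PD + LIF, although quantile normalization called it higher (0.20, adjusted p = 0.00599). On the side of removal, Tet2 fell from 17.3 and 17.3 FPKM to 2.95 and 2.96 FPKM (-2.21 ± 0.08) while Tet1 was not called at 36.02 and 37.7 FPKM in 2i + LIF and 37.9 and 39.8 FPKM in PD + LIF. The Gadd45 genes rose, Gadd45g from 1.26 and 0.388 FPKM to 13.4 and 15.8 FPKM. Methylation of DNA was not measured.

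Polycomb genes fell in 10 of 28 cases (35.7%) and rose in 8 (28.6%), against 21.3% and 30.9% of all genes tested. The core subunits of PRC2 were not called or fell slightly, with Ezh2 at 99.1 and 101 FPKM in 2i + LIF and 97.1 and 97.9 FPKM in PD + LIF, Suz12 not called and Eed from 96.5 and 91.2 FPKM to 65.96 and 66.9 FPKM. Ezh2 was the only named gene that turned direction against the reported setting while being called in at least 1 of the 2 fits compared. It was called higher after quantile normalization (0.12, adjusted p = 0.0364) and lower with median-ratio scaling (adjusted p = 0.048), against -0.04 without either. Accessory and alternative subunits rose, Phf19 from 0.537 and 0.894 FPKM to 12.8 and 11.7 FPKM (2.96 ± 0.15, adjusted p = 1.12e-05, limma), Ezh1 2.74-fold and Pcgf5 2.66-fold. Of 14 genes of the microRNA machinery and TRIM71 tested 5 rose (35.7%) and 4 fell (28.6%), also near the shares over all genes. Drosha fell from 64.8 and 66.3 FPKM to 50.9 and 51.3 FPKM, Tarbp2 1.39-fold, and Tnrc6c rose 1.64-fold. Without 2i + LIF replicate 2 or either PD + LIF replicate, 2 were lower.

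The response was compared with that of Trincr1-/- ESCs by an interaction term. It differed between genotypes for 279 of 15430 genes (1.81%) at an adjusted p under 0.05 (limma), of which 245 were also called in wild type. In 123 of them the change was larger in the knockout, in 70 it was larger in wild type, and in 84 the genotypes had opposite signs. The remaining 2 had a fold change of exactly 0 in the knockout. Among Wnt targets, the fall of Axin2 was smaller in the knockout (-1.56 against -2.66, adjusted p of the difference 0.0409), as was that of Sp5 (-1.14 against -2.71, 0.0272). Tfcp2l1 and Esrrb fell further in the knockout, Tfcp2l1 with -2.86 against -2.12 (adjusted p of the difference 0.0277). This count was unstable, at 39 with a replicate block and 3 to 34 when 1 sample was left out, so that single genes of it are uncertain.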

How the data were processed

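Poly(A) RNA of 8 ESC samples was sequenced on a HiSeq2000, and the 4 wild-type samples, 2 per medium, form the comparison. The authors deposited 1 table of FPKM values per gene. The submitters' processing notes name STAR 2.5.0 and Cufflinks 2.2.1 and the mm9 genome, while the coordinates in the table are those of GRCm38. Whether counting used strand is not given in the sources used here, so that overlapping and antisense genes may share reads. Of 41260 entries, 39 identifiers had several and 1 entry each was kept, leaving 41204 genes. In addition, 27 symbols that appeared as numbers or dates were restored from their identifiers.

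Genes had to average more than 0.2 FPKM across all 8 samples, and log2(FPKM + 1) was fitted with limma 3.58.1 (R 4.3.3) over 4 groups, with a trend in the variance and Benjamini-Hochberg adjustment over 15430 genes at a threshold of 0.05. Tables and plots used Python 3.11.15, pandas 2.3.3, numpy 2.4.6 and matplotlib 3.10.9. The study's fold rule was applied to group means after single values under 0.1 FPKM had been set to 0.1 FPKM. Depth, read off the spacing of the smallest values, was 11.8 to 14.1 M fragments in wild type. The fit was tested on simulated data for this comparison with 15430 genes, in which 187 of 200 planted changes were recovered with 12 false calls. The planted changes were of at least 1 on the log2 scale, in genes well above the filter. Smaller changes, changes in a large share of genes and differences in scaling were not simulated, so the simulation does not cover them.

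The genes and 43 lists were chosen with earlier results of these data known, so that no list gives independent support. Named are the 10 largest rises and falls among called genes without overlap, the 5 largest in FPKM, preset members and up to 3 rises and falls per list, and further members as described. A few genes that the rule would name are not reported here. The settings tried besides the reported ones numbered 17 for the limma fit. They vary the pseudocount, filter, scaling, variance trend, replicate block and the samples left out. Promoters are RefSeq sequences of GRCm38.p6, found for 10313 genes. The sequencing of RNA bound by TRIM71 was not used here.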

Additional observations from a re-analysis of the deposited data

Results flagged for a closer look

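The 40 named genes below are given because their change from 2i + LIF to PD + LIF differed between wild-type and Trincr1-/- ESCs. The interaction term of limma gave them an adjusted p of 0.00649 to 0.049 over all genes tested. Values are the log2 fold change in the knockout minus that in wild type. For Cdkn1c (1.12), Col1a1 (1.11), Col4a1 (0.90), Dnmt3b (0.93), Gldc (0.95), H2-K1 (1.62) and Hand1 (1.36) the rise was larger in the knockout. The same was seen for Id2 (1.58), Igf2 (1.45), Irx3 (1.21), Krt18 (1.43), Krt8 (1.29), Rian (0.39) and Shisa2 (1.25). The same was seen for Slc2a1 (0.51), Sox1 (1.06) and Sox4 (1.14). For Dppa3 (-1.08), H19 (-0.92), Hexa (-1.08), Ldhb (-1.10) and Pim3 (-0.42) the rise was smaller in the knockout. For Axin2 (1.09), Fasn (0.61), Hspa5 (0.60), Mat2a (0.37), Sp5 (1.56) and Stmn2 (0.36) the fall was smaller in the knockout. For Asns (-0.40), Cdx2 (-1.11), Esrrb (-0.67), Mt1 (-0.74), Mt2 (-0.83), Tdh (-0.42) and Tfcp2l1 (-0.75) the fall was larger in the knockout. For Id3 (1.46), Idi1 (0.57), Sqle (0.37), Tcf7 (-0.64) and Tfeb (0.57) the fitted changes had opposite signs. 

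The largest differences were those of H2-K1 (0.87 in wild type, 2.49 in the knockout), Id2 (0.96 in wild type, 2.55 in the knockout) and Sp5 (-2.71 in wild type, -1.14 in the knockout). With single samples left out 3 to 34 genes passed this test in place of 279, so that membership of this group depends on the samples used. Groups of 2 samples were too small for a search for outlying samples.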

How the results depend on the processing

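The counts of 4765 higher and 3283 lower genes kept within a factor of 1.5 under the 17 alternative settings. Leaving out single samples gave 3816 to 4686 higher and 2620 to 3251 lower genes, where a lone remaining sample was assumed to vary like the other groups. A replicate block gave 4578 higher and 3190 lower genes and 39 interaction genes in place of 279. Deviations of same-numbered samples correlated by only -0.054 to 0.006, so that the numbers were not taken to pair the samples. The interaction count was also 138 without a filter, 88 without a variance trend and 3 to 34 with single samples left out, and a fit of the wild-type samples alone gives none. By the fold rule, 2870 genes were higher and 1535 lower at a ratio above 1.5, 553 and 226 above 4, 642 and 328 with a minimum mean of 5 FPKM, and 2912 and 1225 with no minimum. The median fold change over all genes was 0.08, against -0.02 after quantile normalization and 0.03 with median-ratio scaling. Of 306 named genes that were called, 275 were called under every alternative that tests them and 31 were not under at least 1. Ezh2 turned to 0.12 after quantile normalization. The cause was not tested for any of these. With 2 samples per group the standard error of a fold change had a median of 0.12 over all genes, and it differed between genes.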

Other observations

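Genes that were close to 0 in 1 medium and expressed in the other were chosen after their values were seen and are given as a description. In wild type, 70 genes (61 protein-coding) were under 0.1 FPKM in both 2i + LIF samples and at least 1 FPKM in both PD + LIF samples. Lmx1b, a LIM homeobox factor of limb and midbrain, was at 13.1 and 12.05 FPKM in PD + LIF, against 0.0680 and 0.0359 FPKM in 2i + LIF. The homeobox factor Dlx3 and the parathyroid hormone receptor Pth1r were listed at 0 in both 2i + LIF samples and reached 4.13 and 2.56 FPKM (Dlx3) and 4.09 and 4.00 FPKM (Pth1r). Calponin (Cnn1), a smooth muscle gene, reached 2.55 and 4.46 FPKM. The growth factor Igf1 reached 3.11 and 2.11 FPKM.

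The opposite pattern was held by 31 genes (20 protein-coding). Sh2d4b, an SH2 domain protein, was at 11.3 and 10.5 FPKM in 2i + LIF and at 0.0525 and 0.0616 FPKM in PD + LIF. Rerg, a small GTPase, was at 6.80 and 7.91 FPKM and then 0.0383 and 0.0457 FPKM. Of the betaine pathway, Dmgdh was at 3.93 and 3.38 FPKM, Bhmt at 1.14 and 1.48 FPKM and Bhmt2 at 1.69 and 1.24 FPKM in 2i + LIF, and none of them exceeded 0.0346 FPKM in PD + LIF. Bhmt and Bhmt2 are close copies, and their reads may not be fully separable. Tbx3os1, an antisense neighbour of Tbx3, was listed at 0 in both PD + LIF samples and at 1.33 and 1.45 FPKM in 2i + LIF. At this depth a value of 0 does not show absence.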
